A study of Danio rerio with 9 samples.

Results

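The p53 pathway genes described here are mdm2, cdkn1a, ccng1, gadd45aa, phlda3, casp8, sesn1, rps27l and aen, a list of 9 targets of the transcription factor p53. Members were taken as the rows of the deposited gene table whose symbol equals a listed name. This gave 8 genes, 1 row each, of 21109 genes and assembled transcripts in the table; aen was not found under its symbol and was not analysed here. The libraries are polyA-selected RNA of zebrafish embryos, with trunk tissue as the labelled source, in 3 groups of 3. The first group received the sf3b1 morpholino together with As2S2, an arsenic sulfide (sf3b1 MO + As2S2). The second received the sf3b1 morpholino alone (sf3b1 MO), and the last a control morpholino (control MO). A morpholino (MO) is an antisense oligonucleotide that blocks splicing or translation of an RNA, and sf3b1 encodes a core spliceosome protein. The labels used here state no strain, stage, dose, treatment time or number of embryos per library, and do not say whether replicates came from separate clutches. The series text speaks of a knockout, while the sample labels name morpholinos. The p-values therefore speak for the spread among these libraries alone.

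The p53 protein is held at a low level by Mdm2, a ubiquitin ligase that is itself encoded by a p53 target gene. When DNA damage, ribosome stress or other insults stabilise the protein, it raises the transcription of genes for growth arrest, cell death, repair and metabolism. In zebrafish embryos the pathway is also known to be switched on by some morpholinos irrespective of their target, and p53 target genes are commonly measured in morphants for that reason.

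Counts per gene were given for the libraries labelled sf3b1 MO and control MO, with totals of 21942696 to 26197696 and 25177824 to 28702980 reads. All 9 libraries had FPKM values (fragment counts scaled to transcript length and sequencing depth). No source used here says whether the As2S2 libraries were normalized with the other 6, which bears on every level set across them. The targeted gene did not settle the labels: sf3b1 stood at 853 to 889 CPM (read counts scaled to one effective library size) in libraries labelled sf3b1 MO against 534 to 546 CPM in control MO. By FPKM it stood at 167 to 171 with As2S2, at 106 to 109 in libraries labelled sf3b1 MO and at 166 to 174 in control MO, so that CPM and FPKM put sf3b1 MO and control MO in opposite order. A morpholino need not lower the RNA it binds, and the group is called by its label throughout. The SD over the 6 libraries of log2 FPKM per CPM was 0.02 in ccng1, gadd45aa, phlda3 and rps27l, like the median of 0.02 over 15936 genes counted 50 times or more per library. It was 0.07 in cdkn1a, 0.12 in sesn1, 0.14 in mdm2 and 0.52 in casp8, where 95% of those genes stood at 0.12 or less. For casp8 the log2 ratio of sf3b1 MO to control MO was -0.20 by mean CPM and -0.66 by mean FPKM. For sesn1, whose SD (0.1221) was just above that limit (0.1219), these ratios were -0.06 and -0.23. The FPKM of mdm2 and above all of casp8 thus varied between libraries in ways that their counts did not. For sesn1 the spread was wider by CPM, at 17.3% of the mean in libraries labelled sf3b1 MO and 11.6% in control MO. By FPKM it was 15.5% and 4.19%.

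The first question is how these genes differed between libraries labelled sf3b1 MO and control MO, and it was put to counts. Of the 8 genes none was called higher and 2, cdkn1a and ccng1, were called lower in the libraries labelled sf3b1 MO. Both encode regulators of cell division. Over all 20723 genes, 51.1% were called by edgeR (quasi-likelihood test, Benjamini-Hochberg adjusted p below 0.05), 25.2% higher and 25.9% lower. The 2 of 8 genes called lower thus lie near the share of all genes called lower. After adjustment, limma on FPKM had 0 of the 8 higher too and called the same 2 genes lower, where 23.2% of all genes were higher and 26.4% lower. By CPM, 1 gene was higher and 2 were lower without overlap between the groups, against 29.3% and 30.8% of all genes. The median log2 fold change of the 8 genes was -0.06, beside -0.02 over all genes.

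cdkn1a encodes p21, an inhibitor of cyclin-dependent kinases and a widely used readout of p53 activity. It was counted at 2.75, 2.60 and 2.89 CPM in libraries labelled sf3b1 MO, against 6.10, 4.57 and 4.54 CPM in control MO. The groups did not overlap, and control MO replicate 1 stood above its companions. The log2 fold change was -0.88 (SE 0.20, edgeR adjusted p = 0.0022), on 59 to 176 reads per library. ccng1, for cyclin G1, which in mammals recruits a phosphatase to Mdm2, was counted at 210, 225 and 208 CPM in libraries labelled sf3b1 MO against 304, 320 and 319 CPM in control MO. Every sf3b1 MO library lay below every control MO library, with a log2 fold change of -0.55 (SE 0.04, adjusted p = 5.7e-08).

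The other 6 genes did not pass the test. mdm2 was counted at 16.9, 15.7 and 16.5 CPM in libraries labelled sf3b1 MO against 14.6, 14.4 and 14.7 CPM in control MO. These values do not overlap but lie close together (log2 fold change 0.17, 95% interval -0.04 to 0.37, edgeR adjusted p = 0.16). phlda3, whose mammalian counterpart restrains the kinase Akt, stood at 14.4, 13.2 and 11.7 CPM in libraries labelled sf3b1 MO and at 10.6, 8.15 and 12.7 CPM in control MO. The groups overlapped (0.32, interval -0.01 to 0.66, adjusted p = 0.10), but without control MO replicate 3 the gene was called higher, at 0.49 (adjusted p = 0.027). gadd45aa (-0.06, interval -0.40 to 0.27), casp8 (-0.19, -0.61 to 0.22), sesn1 (-0.06, -0.53 to 0.40) and rps27l (-0.01, -0.42 to 0.41) all overlapped between the groups. The authors' deposited table gives log2 fold changes that differ from these by at most 0.013 in the 8 genes.

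**Figure D1:**
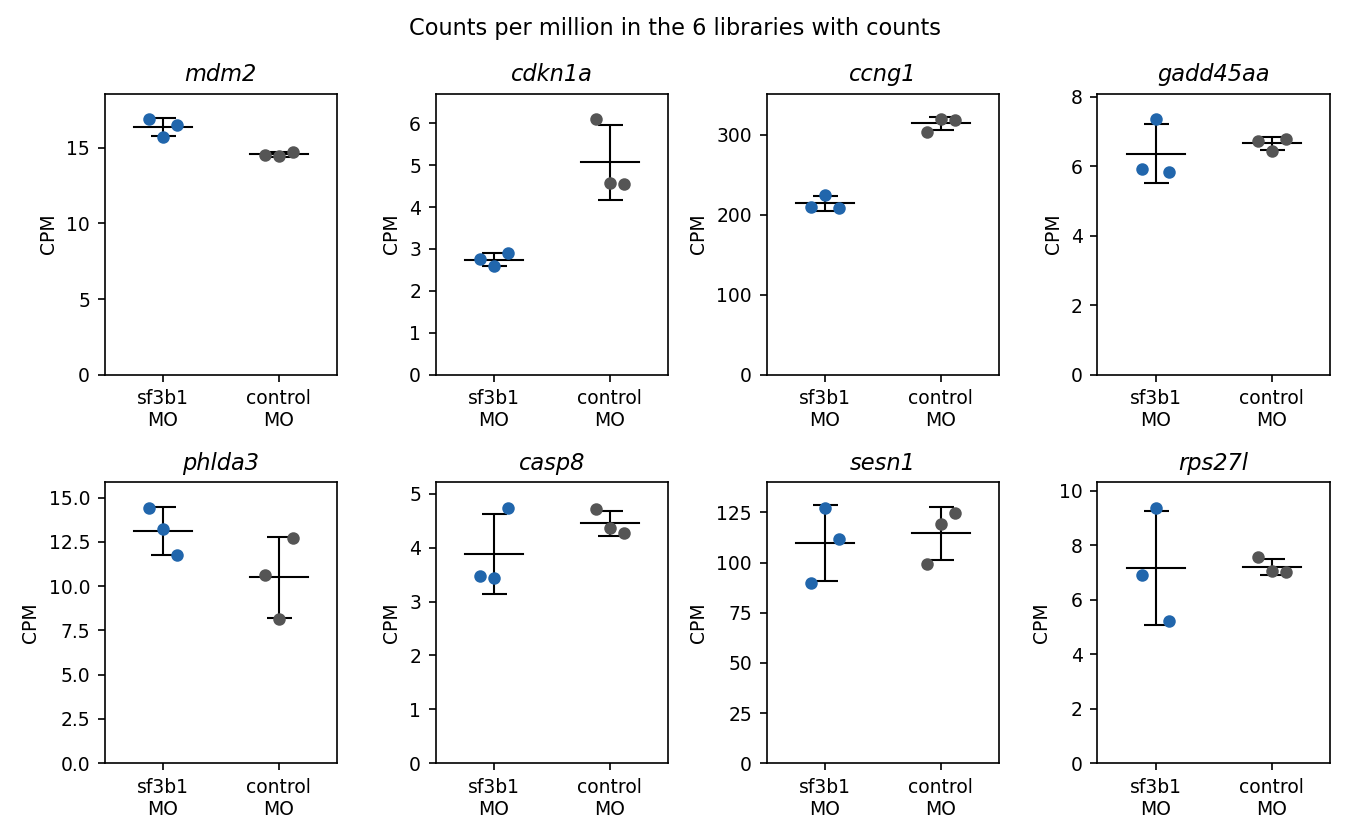
CPM (y axis) of the 8 genes in each library labelled sf3b1 MO (blue, left) and control MO (grey, right). Points are libraries, lines the mean and bars 1 SD (n = 3); cdkn1a and ccng1 are lower and mdm2 is higher in every sf3b1 MO library, and gadd45aa, phlda3, casp8, sesn1 and rps27l overlap.

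The second question is how these genes differed between sf3b1 MO + As2S2 and sf3b1 MO, and only FPKM cover both groups. Here 6 of the 8 genes were called higher and 0 lower: mdm2, cdkn1a, ccng1, casp8, sesn1 and rps27l. gadd45aa and phlda3 were not called. The largest rise was in cdkn1a, to 11.99 ± 0.929 FPKM with As2S2 against 2.42 ± 0.109 FPKM in libraries labelled sf3b1 MO (SD, n = 3), 4.96 times as much. Over all 18013 genes tested with limma on log2(FPKM + 1), 17.3% were called higher and 44.5% lower. On that scale, unshifted, rises called at 2-fold or more numbered 3 among the 8 genes, against 2.46% of all genes. By mean FPKM, casp8 (2.19-fold) and rps27l (1.999-fold) stood higher than on that scale and are not among the 3. Without overlap between the groups, 6 of the 8 were higher and 1 was lower, against 19.1% and 46.8% of all genes.

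The median gene stood at -0.20 on the log2 scale in this comparison, so log2 fold changes are given relative to it, while calls and adjusted p-values refer to the unshifted values. With each library centred on its own median, 30.2% of all genes were called higher and 27.4% lower, in place of 17.3% and 44.5%, and the same 6 of the 8 genes were called higher. Unshifted, the median of the 8 genes was 0.84. The scale of log2(FPKM + 1) understates the change of genes at low FPKM, casp8 in particular.

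mdm2, which encodes the ligase that marks p53 for degradation, stood at 17.3, 13.1 and 14.5 FPKM with As2S2 and at 5.47, 4.82 and 6.43 FPKM in libraries labelled sf3b1 MO. It rose 2.69-fold in mean FPKM (relative log2 fold change 1.48, SE 0.12, adjusted p = 1.4e-05), and 98.7% of genes had a lower value. The spread of mdm2 within groups was wide, at 14.3% of the mean with As2S2 and 14.6% in libraries labelled sf3b1 MO, but small beside the difference.

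Among the genes of growth arrest, cdkn1a was measured at 11.1, 12.9 and 11.998 FPKM with As2S2 and at 2.43, 2.30 and 2.52 FPKM in libraries labelled sf3b1 MO. Its relative log2 fold change of 2.13 (SE 0.10, limma adjusted p = 3.7e-07) lay above that of 99.6% of genes. ccng1 stood at 207, 219 and 221 FPKM with As2S2 against 98.3, 105 and 96.9 FPKM in libraries labelled sf3b1 MO (1.302, SE 0.04, adjusted p = 5.0e-08). The groups were far apart in both genes. gadd45aa, one of several stress-induced Gadd45 genes, did not follow them: it stood at 4.17, 4.72 and 3.86 FPKM with As2S2 and at 4.28, 5.32 and 4.19 FPKM in libraries labelled sf3b1 MO. Its values overlapped, with a relative log2 fold change of 0.11 (95% interval -0.11 to 0.33), and the sign is negative without subtracting the median gene (-0.09, adjusted p = 0.45).

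Of the genes tied to cell death, casp8 encodes caspase-8, which starts apoptosis downstream of death receptors. It stood at 2.82, 1.81 and 2.19 FPKM with As2S2 against 1.32, 0.751 and 1.03 FPKM in libraries labelled sf3b1 MO (relative log2 fold change 0.89, SE 0.19, limma adjusted p = 0.010). The groups did not overlap, but this was the gene with the lowest FPKM and the one whose FPKM strayed furthest from its counts. In libraries labelled sf3b1 MO its counts were highest in replicate 3 and its FPKM in replicate 1. phlda3 stood at 5.89, 7.04 and 5.74 FPKM with As2S2 and at 8.83, 8.04 and 7.11 FPKM in libraries labelled sf3b1 MO. All 3 As2S2 libraries were lower, by a narrow gap, and the gene was not called (relative log2 fold change -0.11, interval -0.43 to 0.21, adjusted p = 0.078). Fitted on these 2 groups alone, phlda3 was called lower (adjusted p = 0.034).

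The remaining members act in metabolism and at the ribosome. sesn1, for sestrin 1, a stress-induced brake on mTORC1 signalling in mammals, was measured at 55.0, 53.2 and 53.2 FPKM with As2S2. In libraries labelled sf3b1 MO it stood at 26.1, 35.4 and 33.4 FPKM, with replicate 1 apart from the others. The rise (relative log2 fold change 0.96, SE 0.09, limma adjusted p = 0.00010) was well beyond that spread. FPKM put sesn1 in libraries labelled sf3b1 MO further below control MO (log2 ratio -0.23) than CPM did (-0.06). rps27l, a variant of ribosomal protein S27 whose human counterpart is induced by p53, stood at 12.7, 20.8 and 15.8 FPKM with As2S2 and at 7.96, 10.8 and 5.95 FPKM in libraries labelled sf3b1 MO. It had the widest relative spread of the 8 genes in both groups, at 24.8% and 29.3% of the mean, and its groups still did not overlap (1.13, SE 0.20, adjusted p = 0.0029).

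rps27l is a near copy of 2 abundant genes, rps27.1 and rps27.2, and reads shared with them were not tested. Those stood at 1119 ± 69.7 and 1097 ± 49.96 FPKM with As2S2 and at 608 ± 16.1 and 738 ± 42.8 FPKM in libraries labelled sf3b1 MO (SD, n = 3). Both rose, by 1.08 and 0.77 relative to the median gene, so the value of rps27l is uncertain. casp8 overlaps asic4b, and sesn1 overlaps armc2 and si:ch211-51a19.5, in the RefSeq annotation of a later zebrafish assembly. No source used here says whether counting used strand.

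**Figure D2:**
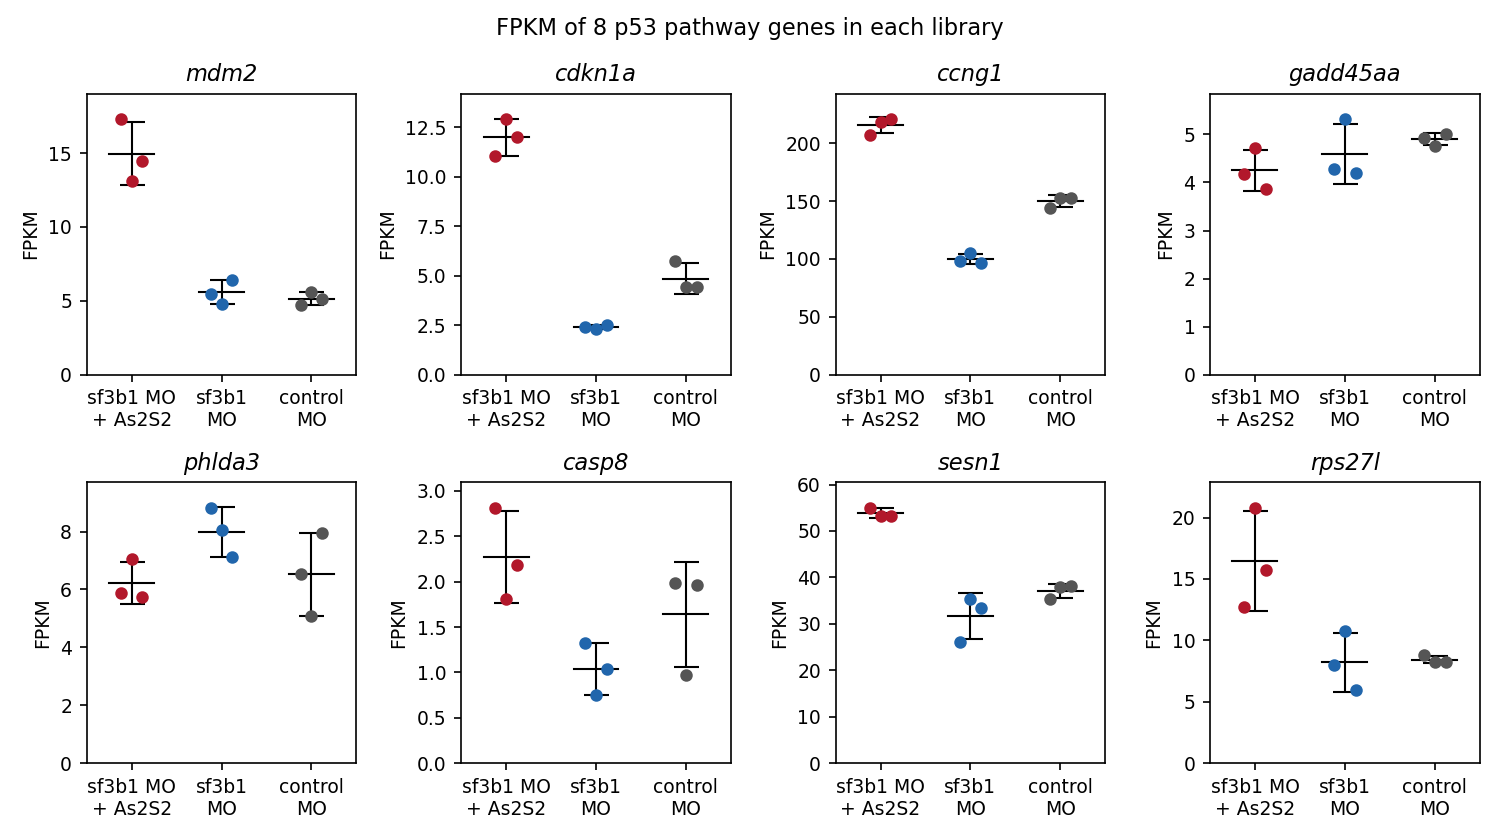
FPKM (y axis) of the 8 genes in each library of sf3b1 MO + As2S2 (red, left), sf3b1 MO (blue, middle) and control MO (grey, right). Points are libraries, lines the mean and bars 1 SD (n = 3). mdm2, cdkn1a, ccng1, sesn1 and rps27l are highest in all 3 As2S2 libraries, and gadd45aa, phlda3 and casp8 are not.

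The third comparison sets As2S2-treated morphants against control MO and asks how far from the control level they ended. It shares the As2S2 libraries with the second and the control MO libraries with the first, so the values are set side by side and are not independent. With As2S2, 5 of the 8 genes were called higher than in control MO and 0 lower: mdm2, cdkn1a, ccng1, sesn1 and rps27l. Over all genes 19.5% were called higher and 48.5% lower, and the median gene stood at -0.25. The unshifted median of the 8 genes was 0.52, and 2 of the 8 were called at 2-fold or more on the unshifted log2(FPKM + 1) scale, against 3.53% of all genes. Without overlap, 5 of the 8 were higher and 1 was lower, against 21.0% and 51.1% of all genes. Centred, 34.8% of all genes were called higher and 28.0% lower, and casp8 joined the 5 (0.62, limma adjusted p = 0.016).

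mdm2 averaged 14.97 ± 2.13 FPKM with As2S2 (SD, n = 3) against 4.74, 5.57 and 5.14 FPKM in control MO, 2.91 times as much (relative log2 fold change 1.62, SE 0.12, limma adjusted p = 6.6e-06). cdkn1a averaged 11.99 FPKM with As2S2 against 5.75, 4.41 and 4.40 FPKM in control MO, 2.47 times as much (1.405, SE 0.10, adjusted p = 7.5e-06). Libraries labelled sf3b1 MO, at 2.42 FPKM, lay below the control MO mean of 4.85 ± 0.778 FPKM. cdkn1a and ccng1 were thus highest with As2S2, lowest in libraries labelled sf3b1 MO and intermediate in control MO, with no overlap among the 3 groups.

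For ccng1 the control MO values were 144, 153 and 153 FPKM, and the As2S2 libraries exceeded them 1.44-fold (relative log2 fold change 0.77, SE 0.04, limma adjusted p = 4.1e-06). sesn1 stood at 35.3, 37.9 and 38.1 FPKM in control MO and was 1.45 times as high with As2S2 (0.77, SE 0.09, adjusted p = 0.00088). rps27l stood at 8.77, 8.27 and 8.27 FPKM in control MO, where it varied little, and was 1.95 times as high with As2S2 (1.11, SE 0.20, adjusted p = 0.0038). casp8 in control MO stood at 1.98, 0.976 and 1.96 FPKM, across the As2S2 values (0.57, 95% interval 0.15 to 0.996 relative to the median gene, unshifted adjusted p = 0.15). phlda3, at 6.55, 5.07 and 7.95 FPKM in control MO, overlapped as well (relative 0.20, unshifted -0.05, adjusted p = 0.79). gadd45aa was at 4.92, 4.77 and 5.01 FPKM in control MO, just above all 3 As2S2 libraries (relative 0.08, unshifted -0.17, adjusted p = 0.14).

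**Figure D3:**
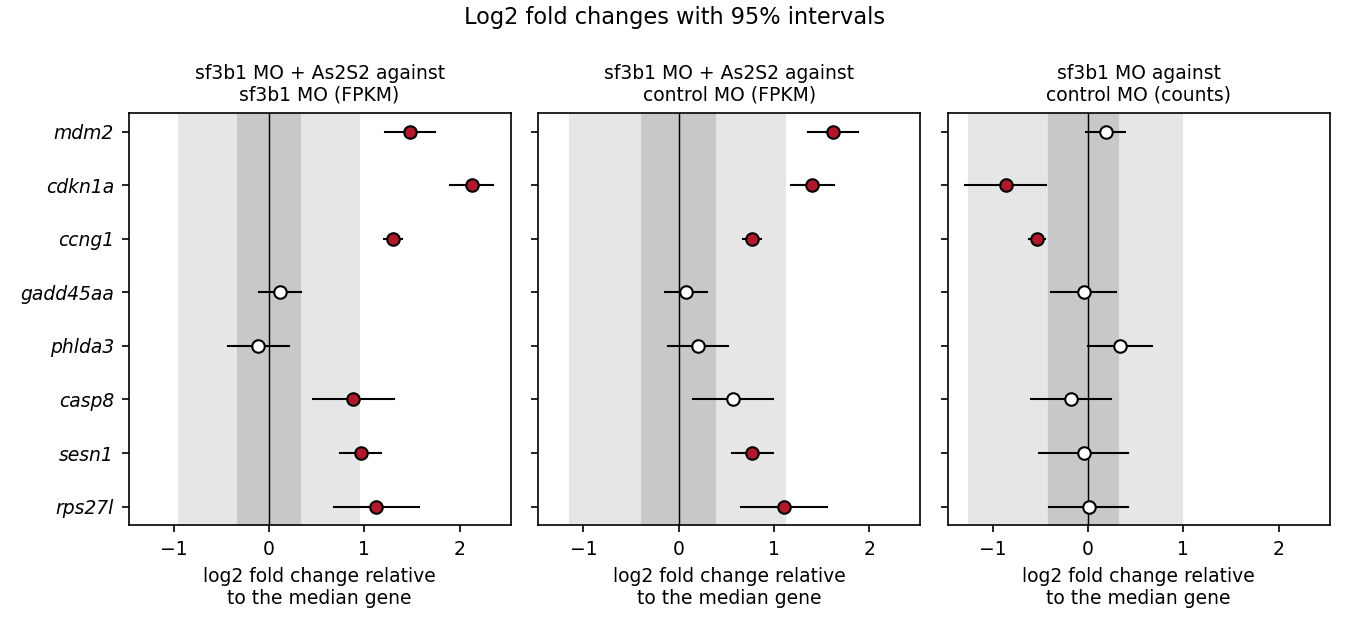
Median-gene-relative log2 fold change (x axis) of the 8 genes in the 3 comparisons, with 95% intervals. Filled points passed the test on unshifted values, and the dark and light grey bands run between the quartiles and the 5th and 95th percentiles of all genes; with As2S2 against sf3b1 MO, 6 of the 8 genes are filled, at 0.89 to 2.13.

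Levels differed more between genes than between groups. Per length, ccng1 was the most abundant in all 3 groups, at 216 ± 7.18 FPKM with As2S2, 100.1 ± 4.37 in libraries labelled sf3b1 MO and 149.7 ± 5.09 in control MO (SD, n = 3). sesn1 followed at 53.8 FPKM with As2S2, 31.6 FPKM in libraries labelled sf3b1 MO and 37.1 FPKM in control MO, and rps27l came next by mean. In libraries labelled sf3b1 MO, rps27l (8.22 FPKM) and phlda3 (7.99 FPKM) overlapped. casp8 was the lowest in all groups, at 2.27 FPKM with As2S2, 1.03 FPKM in libraries labelled sf3b1 MO and 1.64 FPKM in control MO. Between them the order moved: in control MO phlda3, mdm2, gadd45aa and cdkn1a ran from 6.52 to 4.85 FPKM with each neighbour overlapping the next. With As2S2 mdm2 (14.97 FPKM) and cdkn1a (11.99 FPKM) stood clear above phlda3 (6.22 FPKM) and gadd45aa (4.25 FPKM), and rps27l and mdm2 overlapped. In libraries labelled sf3b1 MO, cdkn1a stood at 2.42 FPKM, clear below gadd45aa at 4.60 FPKM.

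The wider p53 pathway was read from 4 lists of regulators, growth arrest, death, and repair and metabolism genes, 72 symbols with the members. Without the members, 51 genes were tested for As2S2 against sf3b1 MO, and 21 were called higher and 10 lower, where 17.3% of all genes were higher and 44.5% lower. Centred, 31 were higher and 6 lower, beside 30.2% and 27.4% of all genes. Their median was 0.08 unshifted, beside -0.20 over all genes. By role, members included and against the same shares of all genes, 8 of 14 growth arrest genes rose and 1 fell (10 and 1 centred). Of 11 regulators and sensors, 6 rose and 3 fell (8 and 1 centred), and of 18 death genes 10 rose and 2 fell (13 and 1 centred). The death list mixes genes that promote and genes that block apoptosis. The blockers bcl2a, bcl2l1, mcl1a and mcl1b were all among the 10 that rose, and the 2 that fell were apaf1 and bcl6aa. The count thus gives no direction for cell death. bcl2a reached 1 FPKM in all As2S2 libraries but in no library labelled sf3b1 MO (at most 0.990 FPKM). The 16 repair and metabolism genes had 3 higher and 4 lower, and centring turned this to 6 higher and 3 lower. Against control MO, 22 of the 51 were called higher and 14 lower, beside 19.5% and 48.5% of all genes. Centred, 29 were higher and 6 lower, beside 34.8% and 28.0%.

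Single genes of these lists moved apart. With As2S2, mcl1b, of a family of genes that block apoptosis, stood at 50.9 ± 1.15 FPKM against 15.5 ± 0.757 FPKM in libraries labelled sf3b1 MO (SD, n = 3; relative log2 fold change 1.855, limma adjusted p = 2.0e-08). gadd45ba, a Gadd45 paralog, rose to 61.4 ± 3.17 FPKM against 22.7 ± 1.83 FPKM (1.603). gadd45aa was not called, and gadd45ga fell to 20.2 ± 1.01 FPKM with As2S2 against 44.3 ± 8.43 FPKM in libraries labelled sf3b1 MO (-0.87). ddb2, which recognises ultraviolet damage in DNA, fell to 1.55 ± 0.270 FPKM against 7.08 ± 0.761 FPKM (-1.46). tigara, related to a regulator of sugar breakdown, fell to 0.441 FPKM against 2.41 FPKM (-1.05), and bcl6aa, for a transcriptional repressor, to 0.516 FPKM against 2.04 FPKM (-0.79). ddb2 is a p53 target in human cells.

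Against control MO, mcl1b (relative log2 fold change 1.77) and gadd45ba (1.69) were again the highest of the named genes with As2S2, with mdm4 at 1.26 and btg1 at 1.196, and tigara (-1.18) and bcl6aa (-1.08) the lowest (limma adjusted p at most 1.9e-05). mdm4 encodes a relative of Mdm2 that also restrains p53, and btg1 an antiproliferative protein. In libraries labelled sf3b1 MO against control MO, 20 of 55 genes outside the members were called higher and 12 lower by counts, beside 25.2% and 25.9% of all genes, with a median of 0.07 beside -0.02 over all genes. The largest called changes at a mean of 1 FPKM or more were in ddb2 (log2 fold change 1.25), perp (-0.97) and gadd45ga (0.93). Next came mdm4 (0.85), xpc (0.78) and ppm1db (0.69), all with an edgeR adjusted p of at most 0.028. Below that mean, at 0.80 FPKM, casp3b was called lower (-0.90, edgeR adjusted p = 0.00098). perp encodes a junction protein of epithelia, xpc a DNA damage sensor and ppm1db a phosphatase that acts on the pathway. mdm4 thus stood at 67.9 ± 1.09 FPKM with As2S2, 58.5 ± 0.278 FPKM in libraries labelled sf3b1 MO and 33.2 ± 0.496 FPKM in control MO (SD, n = 3), higher in both morphant groups, whereas mdm2 was called higher with As2S2 alone; whether the 2 genes differ was not tested.

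Cyclins and cyclin-dependent kinases, on which the p21 protein acts, were set beside cdkn1a. Of 10 such genes, 6 were called higher and 0 lower with As2S2 against sf3b1 MO, beside 17.3% and 44.5% of all genes. Centred, 8 were higher and 0 lower, beside 30.2% and 27.4%. Against control MO, 4 were higher and 2 lower, beside 19.5% and 48.5% of all genes. Centred, 6 were higher and 1 lower, beside 34.8% and 28.0%. Among these 10 genes, cdk6, called higher against sf3b1 MO, reached 1 FPKM in the As2S2 libraries alone (1.78 to 2.31 FPKM). It stood at no more than 0.706 FPKM in libraries labelled sf3b1 MO and 0.757 FPKM in control MO. Its entry into both FPKM comparisons thus rested on its As2S2 values, and its call there adds nothing to these counts. ccnd1, for cyclin D1, stood at 64.6 ± 1.89 FPKM with As2S2, 25.6 ± 0.532 FPKM in libraries labelled sf3b1 MO and 31.6 ± 1.56 FPKM in control MO. By counts, 7 of the 10 were called lower and 0 higher in libraries labelled sf3b1 MO, beside 25.9% and 25.2% of all genes.

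**Figure D4:**
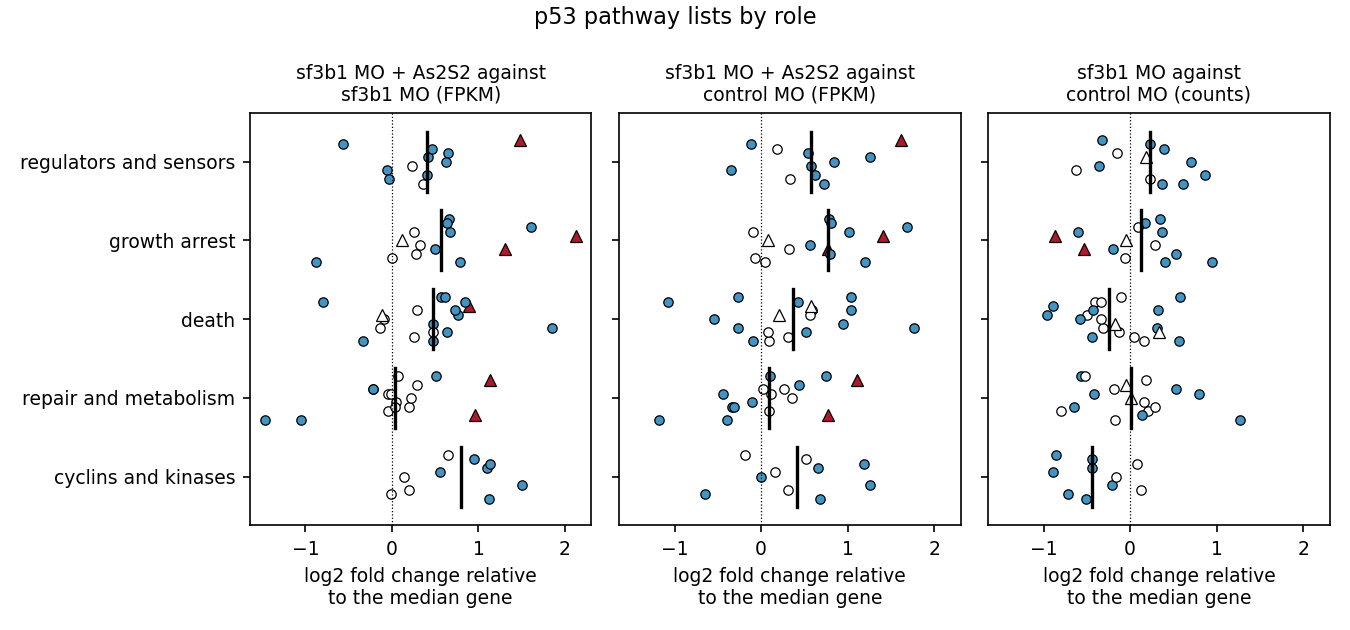
Median-gene-relative log2 fold change (x axis) of each tested gene of the 4 p53 lists and of cyclins and kinases (rows), in the 3 comparisons. Triangles are the 8 genes, circles other genes, filled symbols passed the test on unshifted values and black bars are medians; with As2S2 against sf3b1 MO the medians of growth arrest (0.56) and cyclins and kinases (0.80) lie furthest right.

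Markers of tissues moved with the groups as well. Summed over 9 of 9 eye markers, FPKM ran from 629 to 664 with As2S2, from 3025 to 3209 in libraries labelled sf3b1 MO and from 4169 to 4298 in control MO, although the source is labelled as trunk. Summed over 7 of 7 skeletal muscle markers they ran from 1675 to 1766, from 3239 to 3348 and from 8483 to 8578 FPKM in the same groups. Of these 7, 6 were called lower and 0 higher with As2S2 against sf3b1 MO, and likewise in libraries labelled sf3b1 MO against control MO. mylpfa stood at 199, 404 and 382 FPKM and ckma at 388, 417 and 1136. In that order of groups, notochord markers (2 of 4 measured) summed to 54.8 to 57.1, 64.3 to 71.4 and 103 to 104 FPKM. Markers of brain and neurons (6 of 6), with the glial gene gfap among them, summed to 967 to 980, 1372 to 1394 and 1154 to 1170 FPKM. They did not move together: with As2S2 against sf3b1 MO, 1 was called higher and 5 lower. elavl3 stood at 156, 105 and 116 FPKM and gfap at 71.9, 152 and 216. Liver markers (3 of 4 measured) summed to 101 to 107, 53.5 to 61.3 and 210 to 216 FPKM. This sum mixed unlike changes. apoa2 stood at 77.8, 15.1 and 10.6 FPKM, rbp4 at 17.0, 38.3 and 196, and tfa at 8.58, 4.69 and 5.78. Red blood cell markers (3 of 4) summed to 766 to 780, 255 to 271 and 773 to 831 FPKM, nearly all from hbbe1.1. This gene stood at 769, 254 and 779 FPKM. Its counts did not show that difference, at 495 CPM in libraries labelled sf3b1 MO and 491 CPM in control MO. rhag stood at 3.36, 8.22 and 18.7 FPKM and alas2 at 1.67, 0.768 and 4.18. None of these markers stayed under 1 FPKM in all libraries. Heat shock genes (6 of 6) summed to 11594 to 11902 FPKM with As2S2, 450 to 477 FPKM in libraries labelled sf3b1 MO and 134 to 140 FPKM in control MO. In bulk samples fewer cells of a type and less RNA per cell cannot be told apart, and the part of these shifts in the values of the p53 genes was not tested.

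By the pattern over the 9 libraries, the genes most like mdm2 among 18012 were the assembled transcript MSTRG.38080.1, otx2a, foxn4, mast1a and gadd45gb.1. Likeness was the root mean square difference of log2(FPKM + 1), each gene centred on its own mean, and ran from 0.11 to 0.13. otx2a averaged 21.8 FPKM with As2S2, 9.26 FPKM in libraries labelled sf3b1 MO and 9.11 FPKM in control MO, and gadd45gb.1, another Gadd45 gene, 146, 57.4 and 50.7 FPKM. In the same groups MSTRG.38080.1 averaged only 2.38, 0.41 and 0.26 FPKM, and mast1a 3.01, 0.84 and 0.68 FPKM. At such levels log2(FPKM + 1) understates changes, so the likeness of these genes to mdm2 holds on that scale alone. For the mean profile of the 8 genes the nearest were arhgap29b, lfng, glo1, stip1 and si:dkey-25o16.4, at 0.05 to 0.07. stip1, for a co-chaperone of Hsp70 and Hsp90, averaged 71.2 FPKM with As2S2, 41.4 FPKM in libraries labelled sf3b1 MO and 46.6 FPKM in control MO. None of these 10 genes is on the 4 p53 lists, which name other Gadd45 genes but were drawn up without gadd45gb.1.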

How the data were processed

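All values came from 1 deposited table. The submitters' processing notes name fastp (0.22.0), DESeq2 and the GRCz11 build, with aligner and counter not given in the sources used here. Whole-number counts per gene were deposited by the authors for the 6 libraries headed wt and ko, taken as control MO and sf3b1 MO. The authors' FPKM cover all 9 libraries, and the header of the mean column names that unit. Fold changes (log2) and p-values that the authors deposited served only for comparison with values computed here; the mean column, also on the log2 scale, was not used further.

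Blank lines (14) and text fragments (14) were dropped. Counts were tested with edgeR 4.0.16 (TMM, robust quasi-likelihood test, default filter, which removed no gene; 20723 genes). FPKM were tested by limma 3.58.1 after log2(FPKM + 1) (a pseudocount of 1), with a variance trend and all 9 libraries in 1 fit. The 18013 genes tested reached 1 FPKM in 3 libraries or more. A call is a Benjamini-Hochberg adjusted p below 0.05 over all genes tested. Intervals are 95% from the same fits. Both fits were run on simulated data in which only genes at higher levels were changed, so those runs do not vouch for calls of genes at low FPKM such as casp8. No depth is known for the As2S2 libraries.

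Members and gene lists were chosen with earlier results of these data known. All members are named, and 1 other item of the pathway is not reported here. From the 4 p53 lists, up to 6 called genes per comparison with the largest change and a mean of at least 1 FPKM are named, beside genes named for a paralog or a role. Alternatives were another tool, scaling, pseudocount, filter, replicate block and each library left out. No sequence is printed because the reference tables used here hold none.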

Additional observations from a re-analysis of the deposited data

How the results depend on the processing

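Each log2 fold change of the 8 genes was recomputed under every alternative, 264 values in all: 260 kept their side of the threshold, 0 lost a call, 4 gained one (phlda3 and casp8) and none reversed among called values. For counts, the alternative without a filter repeated the main fit, because the filter removed no gene. Its values for the 8 genes, counted among the 260, could not differ. The 6 rises with As2S2 against sf3b1 MO passed under all alternatives, at adjusted p up to 0.041 for casp8 and 0.010 for rps27l with 1 library left out. Rises of the 5 genes against control MO passed in all of them too (limma adjusted p at most 0.014), as did the falls of cdkn1a and ccng1 by counts (at most 0.018). With limma on FPKM in place of counts, cdkn1a (-0.77) and ccng1 (-0.58) were lower in libraries labelled sf3b1 MO and the other 6 genes were not called. The pseudocount shrinks the value of cdkn1a, whose log2 ratio of mean FPKM was -1.01. DESeq2 in place of edgeR called 10185 genes rather than 10592. Leaving out 1 library, calls over all genes ranged from 9256 to 9929 by counts, 10379 to 10574 for As2S2 against sf3b1 MO and 11332 to 11666 for As2S2 against control MO. Replicate numbers paired the samples weakly if at all. By counts, deviations of same-numbered libraries correlated at 0.05 to 0.07, and those of differently numbered libraries at -0.05 to -0.01. By FPKM these ran from -0.07 to 0.04 and from -0.09 to 0.10. With the replicate block, 10220, 10926 and 12053 genes were called in the 3 comparisons, and casp8 was called against control MO (0.32, adjusted p = 0.028). Depth limits cdkn1a, casp8, gadd45aa and rps27l most, at 59 to 218 reads per library.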
